A study of Mus musculus with 8 samples.

Results

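The 7 genes described here are Hmgcs1, Idi1, Mvd, Fdft1, Sqle and Cyp51, which encode enzymes of sterol synthesis, and Srebf2, which encodes the transcription factor SREBP-2. They were taken by gene name from a table of 54091 genes measured by RNA sequencing in 8 white quadriceps muscles, and all 7 were found once. The muscles came from 4 male mice with the genotype CKM Cre (Acot2 ko in muscle), called Acot2 mKO here, and from 4 male mice with the genotype Loxp/Loxp. All mice were aged 11 to 14 weeks, ate regular chow (Purina diet 5001) and were sampled in the morning, so no feeding or dietary contrast is part of these data. The Cre transgene is named for Ckm, the muscle creatine kinase gene, whose promoter acts in muscle fibres and not in the fat, nerve or vessel cells of the same piece of muscle. No Cre is named in the Loxp/Loxp genotype, so deletion of Acot2 and presence of Cre cannot be told apart. The labels give every library its own animal number, and muscles are numbered here as the labels number the samples. The p-values below measure the spread between these animals.

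In the GENCODE M21 annotation of GRCm38, the genes are spread over 5 chromosomes. Hmgcs1 lies at chr13:119690379-119708260 and Idi1 at chr13:8885501-8892451, both on the plus strand, Sqle at chr15:59315077-59331192 and Srebf2 at chr15:82147181-82205379, both on the plus strand, and Mvd at chr8:122433601-122443422, Fdft1 at chr14:63145150-63179578 and Cyp51 at chr5:4081145-4104746, all on the minus strand.

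Cholesterol is built from acetyl-CoA through the mevalonate pathway, which leads to farnesyl diphosphate, and then through squalene, lanosterol and a series of demethylations and reductions. SREBP-2 is held in the endoplasmic reticulum as a precursor by SCAP and INSIG proteins when sterol is plentiful, and its processed form enters the nucleus and activates most enzymes of the pathway and its own gene when sterol is scarce. In skeletal muscle the pathway also supplies dolichol, ubiquinone and the lipid anchors of small GTPases. Myelinating Schwann cells are known for high cholesterol synthesis, because myelin is rich in cholesterol.

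The libraries held 30415429 to 48834283 reads assigned to genes, and 13638 genes reached 10 normalized reads in 4 or more libraries and were tested, all 7 sterol genes among them. A normalized read is a read divided by the size factor of its library. Acot2, the deleted gene, which encodes a mitochondrial acyl-CoA thioesterase, stood at 43.8, 42.8, 53.7 and 48.9 normalized reads in Acot2 mKO muscles 5 to 8, against 213, 149, 251 and 240 in Loxp/Loxp muscles 1 to 4. Its log2 difference was -2.13 ± 0.18 (SE; limma adjusted p = 0.000962), in the direction the labels give. With Kbtbd12 it was 1 of 2 genes in the whole table past an adjusted p of 0.05. White quadriceps fibres dominated every library, since the glycolytic myosin Myh4 was the marker with the highest count. Acot2 mKO muscles 7 and 8 stood apart by slow fibre RNA: the slow myosin Myh7 had 11.8, 35.5, 2133 and 7430 normalized reads in Acot2 mKO muscles 5 to 8, against 7.83 to 40.1 in Loxp/Loxp muscles. Loxp/Loxp muscles 2 and 3 stood apart by fat-cell RNA: adiponectin (Adipoq) had 46.5 to 169 normalized reads in Acot2 mKO muscles, against 224, 1738, 688 and 64.9 in Loxp/Loxp muscles 1 to 4.

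None of the 7 sterol genes passed an adjusted p of 0.05 between Acot2 mKO and Loxp/Loxp muscles, where 0.0147% of all tested genes did (limma, Benjamini-Hochberg over 13638 genes, adjusted p = 0.9995 for each of the 7). In none of them did the 4 Acot2 mKO libraries lie wholly above or wholly below the 4 Loxp/Loxp libraries, a separation that 1.92% of all tested genes showed in one direction or the other. The median log2 difference of the 7 was 0.07, against 0.005 over all tested genes. Mvd alone had an unadjusted p under 0.05, a level that 2.91% of all tested genes reached.

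**Figure D1:**
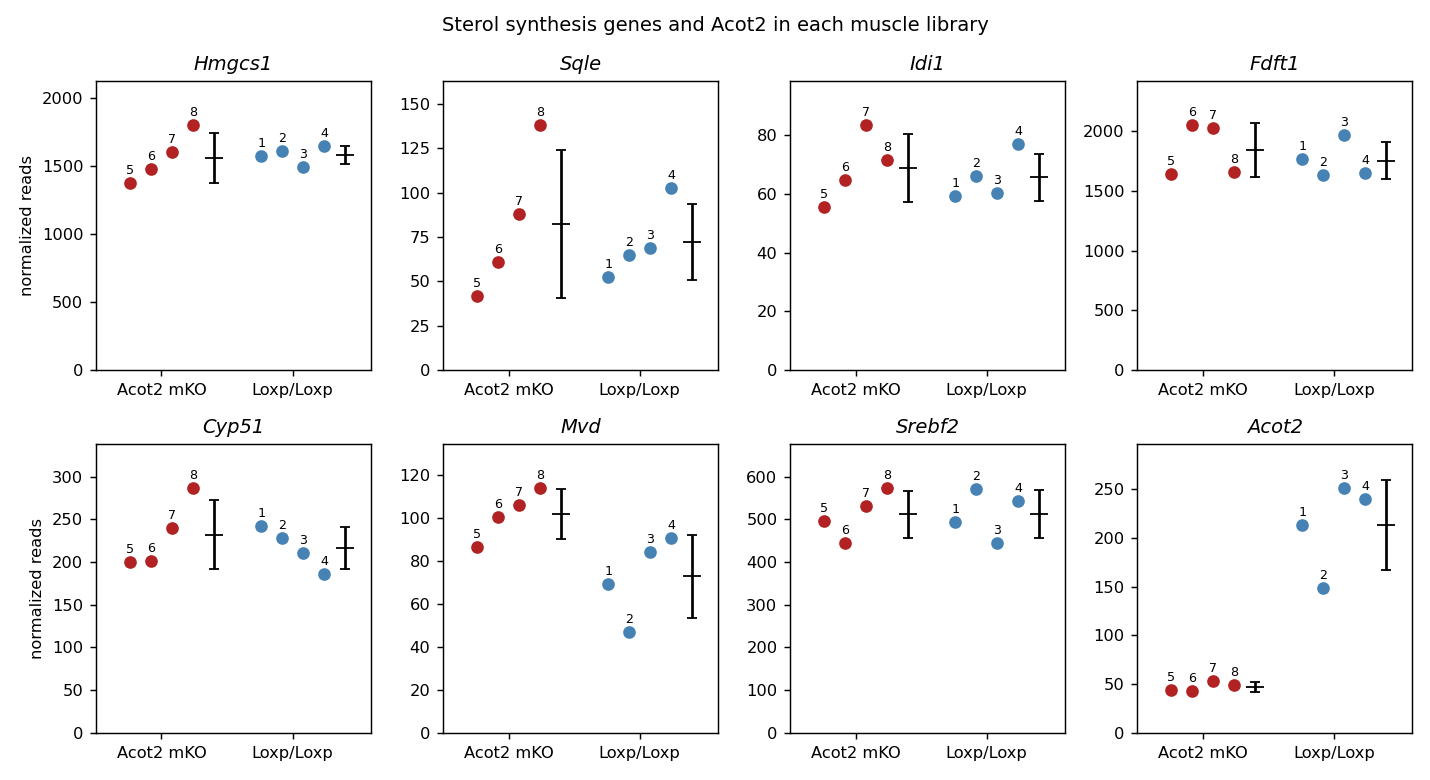
Normalized reads of the 7 sterol synthesis genes and of Acot2 (vertical axes, linear and starting at 0) in the 4 Acot2 mKO and the 4 Loxp/Loxp muscles. Points are libraries, numbered as in the text, and bars are the mean ± SD of each group. The 4 Acot2 points of Acot2 mKO muscles lie between 42.8 and 53.7, below all Loxp/Loxp points, while both groups overlap for each sterol gene.

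Hmgcs1 encodes the cytosolic HMG-CoA synthase, an early step of the mevalonate pathway. It had 1373, 1476, 1601 and 1801 normalized reads in Acot2 mKO muscles 5 to 8, against 1574, 1612, 1493 and 1645 in Loxp/Loxp muscles 1 to 4. Both the lowest and the highest library were Acot2 mKO muscles, and the Loxp/Loxp muscles lay between them. The means were 1563 ± 184 in Acot2 mKO and 1581 ± 65.4 in Loxp/Loxp muscles (SD, n = 4 each). The log2 difference was -0.02 (95% interval -0.21 to 0.16), so that a fold between 0.868 and 1.12 was compatible with the data, and the difference was far smaller than the spread between animals (exact two-sided permutation p = 0.857).

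Mvd encodes mevalonate diphosphate decarboxylase, which makes isopentenyl diphosphate, the building unit of all later steps. It had 86.7, 100.3, 106 and 114 normalized reads in Acot2 mKO muscles 5 to 8, against 69.4, 47.0, 84.0 and 90.9 in Loxp/Loxp muscles 1 to 4. 3 of the Acot2 mKO muscles lay above all Loxp/Loxp muscles, and muscle 5 lay between Loxp/Loxp muscles 3 and 4. The ratio of the means was 1.40 and the log2 difference 0.51 ± 0.21 (SE; 95% interval 0.05 to 0.98), with an unadjusted limma p of 0.0328 that became 0.9995 after adjustment over all genes. The exact two-sided permutation p was 0.0571, where the smallest that 4 against 4 allows is 0.0286. Loxp/Loxp muscle 2, the library with the lowest Mvd, was also the one with the highest adiponectin. Without that library the log2 difference was 0.32, and without Loxp/Loxp muscles 2 and 3 together it was 0.35. The adipocyte list of 13 genes, all tested, had 12 genes with a lower estimate in Acot2 mKO, a median log2 difference of -1.82, and a summed level of 17988 to 59776 normalized reads in Acot2 mKO, against 11754 to 83607 in Loxp/Loxp muscles. Most of that sum was Car3, which muscle fibres also express. The part of fat-cell RNA in the Mvd difference was not tested. In whole muscle, fewer cells of a type and less RNA per cell cannot be told apart.

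Idi1 encodes isopentenyl diphosphate isomerase, which supplies the other building unit, dimethylallyl diphosphate. It had 55.6, 64.8, 83.4 and 71.5 normalized reads in Acot2 mKO muscles 5 to 8, against 59.3, 66.0, 60.2 and 76.8 in Loxp/Loxp muscles 1 to 4. The groups were interleaved, with the lowest and the highest library both in Acot2 mKO. The means were 68.8 ± 11.7 in Acot2 mKO and 65.6 ± 8.06 in Loxp/Loxp muscles (SD, n = 4 each), and the log2 difference was 0.06 (95% interval -0.34 to 0.46; exact two-sided permutation p = 0.657). These levels rested on 53 to 101 reads per library, and their spread over the 8 libraries was 1.33 times what counting error alone gives (chi-square per degree of freedom), so differences between single muscles are not resolved for Idi1. Of its transcript sequence, 25.3% of stretches of 50 bases also occur on either strand in transcripts of other annotated genes. Its level is therefore uncertain where the counting split such reads. Its paralog Idi2 was at 0 in all 8 libraries, below the 2.13 to 3.67 normalized reads that a count of 0 allows at these depths.

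Fdft1 encodes squalene synthase, the first step that commits farnesyl diphosphate to sterols. It had 1638, 2050, 2028 and 1661 normalized reads in Acot2 mKO muscles 5 to 8, against 1765, 1634, 1966 and 1650 in Loxp/Loxp muscles 1 to 4. The libraries with less lay between 1634 and 1765 and 3, from both groups, between 1966 and 2050. The log2 difference was 0.07 (95% interval -0.14 to 0.27; exact two-sided permutation p = 0.543). In the same annotation 774 of its exon bases (18.3%) lie opposite exons of Ctsb, a lysosomal protease gene that had 5769 to 6851 normalized reads in Acot2 mKO, against 6189 to 6733 in Loxp/Loxp muscles. The library kit keeps strand, but no source used here states the strand setting of the counting, so a share of Ctsb reads in the Fdft1 value cannot be told apart. Of its stretches of 50 bases, 26.5% also occur in transcripts of Ctsb or Gm6781, which makes its level uncertain in the same way as that of Idi1.

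Sqle encodes squalene epoxidase, the oxygen-dependent step after squalene and a control point of the pathway. It had 42.1, 61.1, 87.9 and 138 normalized reads in Acot2 mKO muscles 5 to 8, against 52.3, 64.9, 68.8 and 103 in Loxp/Loxp muscles 1 to 4. The Acot2 mKO group held both the lowest and the highest value, 3.28 times apart. The means were 82.3 ± 41.7 in Acot2 mKO and 72.2 ± 21.6 in Loxp/Loxp muscles (SD, n = 4 each). The log2 difference was 0.10 with a 95% interval from -0.64 to 0.83, which leaves folds from 0.642 to 1.78 possible (exact two-sided permutation p = 0.857). The estimate was -0.46 without Acot2 mKO muscles 7 and 8 and -0.20 without muscle 8 alone. Those of Idi1 and Cyp51 also took the other sign without muscles 7 and 8, at -0.12 and -0.10.

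Cyp51 encodes lanosterol 14-alpha-demethylase, the first demethylation after ring closure. It had 200.3, 202, 239.8 and 287 normalized reads in Acot2 mKO muscles 5 to 8, against 242, 228, 210.1 and 186 in Loxp/Loxp muscles 1 to 4. Muscle 8 of Acot2 mKO was the highest and Loxp/Loxp muscle 4 the lowest, with the others interleaved. The log2 difference was 0.09 (95% interval -0.21 to 0.39; exact two-sided permutation p = 0.571).

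Srebf2 had 496, 445, 531 and 574 normalized reads in Acot2 mKO muscles 5 to 8, against 493, 571, 444 and 543 in Loxp/Loxp muscles 1 to 4. Each group held low and high libraries, and the ranges of the groups nearly coincided. The means were 511 ± 54.5 in Acot2 mKO and 513 ± 56.0 in Loxp/Loxp muscles (SD, n = 4 each), and the log2 difference was -0.003 (95% interval -0.23 to 0.23). The mRNA level does not report how much SREBP-2 is processed.

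Across the pathway the levels per length of exon differed widely between genes. Averaged over the 8 libraries, Fdft1 had 426 normalized reads per kb of exon and Hmgcs1 342, well above Srebf2 at 71.3, Cyp51 at 50.8, Mvd at 47.0, Idi1 at 19.2 and Sqle at 13.9. Fdft1, at 387 to 485 over the libraries, and Hmgcs1, at 299 to 392, overlapped slightly in their ranges. Cyp51, at 42.2 to 65.0, and Mvd, at 25.3 to 61.3, overlapped over most of the Cyp51 range. The Idi1 range, 15.9 to 23.8, lay within that of Sqle, 7.59 to 24.9. Srebf2, at 61.8 to 79.9, overlapped the top of the Cyp51 range. This order is uncertain for Fdft1, Idi1 and Hmgcs1. Of their stretches of 50 bases, 26.5%, 25.3% and 11.6% are shared on either strand with other genes, against at most 2.77% for the other 4. These shares include genes that overlap on the opposite strand. For Hmgcs1, 464 of the 537 shared stretches occur in Gm48342, which lies opposite it and was at 0 in all 8 libraries. The lowest Hmgcs1 value lay above the highest Srebf2 value.

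The genes also differed in how much they varied between animals. The SD of the log2 level over the 8 libraries was 0.54 for Sqle and 0.40 for Mvd, against 0.20 for Cyp51, 0.20 for Idi1, 0.15 for Fdft1, 0.15 for Srebf2 and 0.12 for Hmgcs1. The median over all tested genes was 0.175, and 88.6% of them varied less than Sqle. Set against counting error alone, a ratio that grows with read depth, the variance was 12.9 times as large for Hmgcs1, 15.1 for Sqle, 18.3 for Fdft1, 5.43 for Cyp51, 5.22 for Mvd and for Srebf2 and 1.33 for Idi1, with a median of 4.16 over all tested genes. Acot2 mKO muscle 8 was the highest library for 5 of the 7 genes (Hmgcs1, Sqle, Cyp51, Mvd and Srebf2), and muscle 5 of the same group was the lowest for 3 (Hmgcs1, Sqle and Idi1). Summed over the 7 genes, the levels were 3892, 4399, 4677 and 4646 normalized reads in Acot2 mKO muscles 5 to 8, against 4255, 4222, 4326 and 4295 in Loxp/Loxp muscles 1 to 4.

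The other genes of the pathway gave the same absence of calls. The lists for the mevalonate pathway and for the steps from squalene to cholesterol held 22 genes, of which 20 were tested, 6 of the 7 sterol genes above among them. None passed the adjusted threshold, 10 estimates lay above 0 and 10 below, and their median log2 difference was 0.003. Idi2 was not detected, and Tm7sf2 was not found by that name among the deposited genes. Besides Mvd, 2 genes had an unadjusted limma p under 0.05, a level that 2.91% of all tested genes reached. Nsdhl, which encodes a sterol 4-alpha-carboxylate dehydrogenase, had 119, 67.2, 116 and 94.2 normalized reads in Acot2 mKO muscles 5 to 8, against 130, 157, 131 and 120.1 in Loxp/Loxp muscles 1 to 4. Its groups did not overlap, a separation that 1.92% of all tested genes showed in one direction or the other. The nearest libraries, at 119 and 120.1, all but touched. The log2 difference of Nsdhl was -0.46 (exact two-sided permutation p = 0.0286, the smallest possible; limma adjusted p = 0.9995). Acat2, the cytosolic thiolase that joins 2 acetyl-CoA, had 47.1, 102.7, 40.0 and 81.5 normalized reads in Acot2 mKO muscles 5 to 8, against 84.5, 213, 107 and 87.7 in Loxp/Loxp muscles 1 to 4. Its log2 difference was -0.84 (exact two-sided permutation p = 0.114; limma adjusted p = 0.9995), and its highest library, Loxp/Loxp muscle 2, was the one with the most fat-cell RNA, whose part in this difference was not tested.

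**Figure D2:**
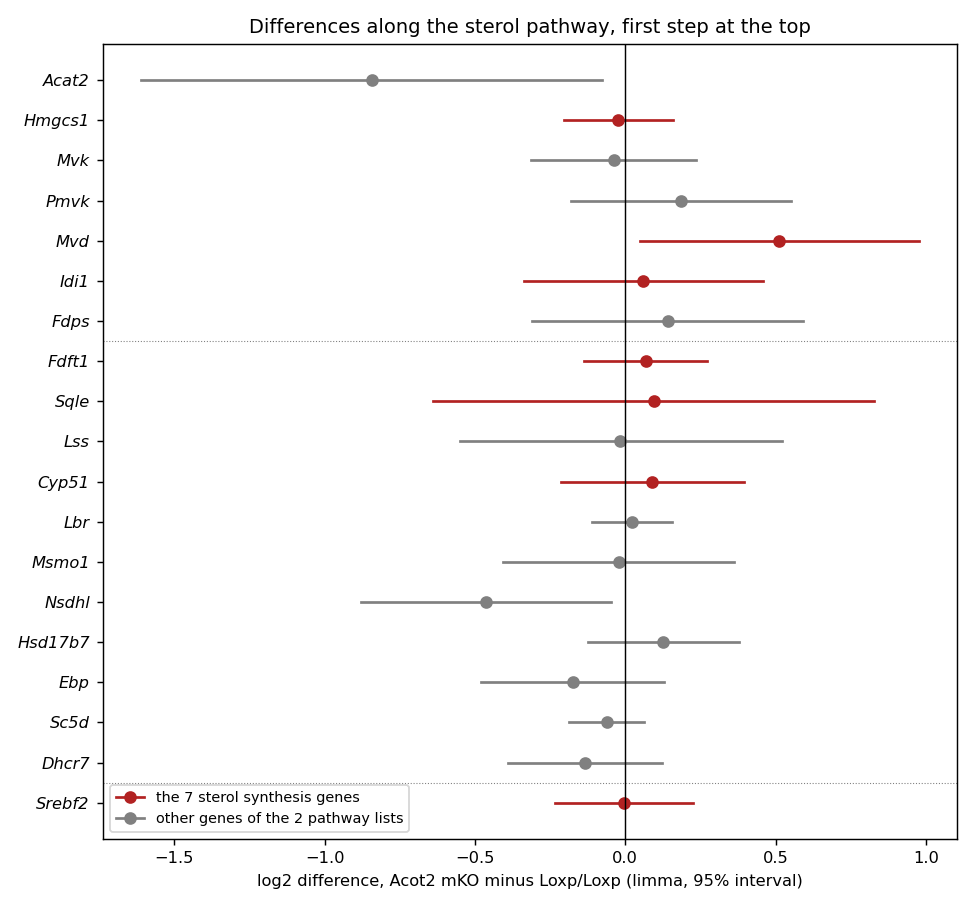
Log2 difference between Acot2 mKO and Loxp/Loxp muscles (horizontal axis, Acot2 mKO minus Loxp/Loxp) with its 95% interval from limma for 18 tested genes of the sterol pathway, in pathway order, with Srebf2 at the foot. Points are estimates and lines are intervals. The interval of Mvd, at 0.51, lies above 0, those of Acat2, at -0.84, and Nsdhl, at -0.46, lie below 0, and the other intervals include 0.

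Of the 12 genes for SREBP processing and sterol sensing, Srebf2 among them, all were tested and none passed the threshold, with a median log2 difference of 0.006. The sterol sensor Scap had a difference of 0.02, the retention factors Insig1 and Insig2 of -0.14 and 0.06, the proteases Mbtps1 and Mbtps2, which release SREBP-2, of 0.07 and 0.002, and Srebf1, which encodes the lipogenic relative of SREBP-2, of -0.03. The lists for sterol uptake and movement (14 tested), for LXR and sterol efflux (8 tested) and for the isoprenoid branches (14 tested) also held no call, with median log2 differences of 0.008, -0.02 and 0.03. The smallest unadjusted p-values there belonged to genes with less mRNA in Acot2 mKO by estimate: Npc2, a lysosomal cholesterol carrier, at -0.28, Soat1, which esterifies cholesterol, at -0.39, and Apoe, a lipid carrier, at -0.46 (exact two-sided permutation p = 0.0857, 0.114 and 0.0857). The fatty acid synthesis genes, the other arm of SREBP control, held no call among 12 tested, but 11 had a lower estimate in Acot2 mKO, with a median log2 difference of -0.40. Fasn, the fatty acid synthase, averaged 1343 ± 265 normalized reads in Acot2 mKO and 7045 ± 9467 in Loxp/Loxp muscles (SD, n = 4 each). The large SD came from Loxp/Loxp muscle 2, and the part of fat-cell RNA was not tested.

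Taken over all pairs, co-variation of the 7 genes rested largely on Acot2 mKO muscles 7 and 8. Of the 21 pairs among the 7 genes, 16 had a Pearson correlation of their log2 levels above 0, and the median r was 0.38. The median was 0.25 without Acot2 mKO muscle 8 and 0.03 without muscles 7 and 8, the libraries with much slow fibre RNA. No pair passed an adjusted p of 0.05 (Benjamini-Hochberg over 21 pairs), and 3 had an unadjusted exact permutation p under 0.05. Hmgcs1 and Sqle had r = 0.88 and Spearman rho = 0.83 (n = 8, exact two-sided permutation p = 0.00481 and 0.0154, adjusted p = 0.101 and 0.152). The r was 0.54 without Acot2 mKO muscles 5 and 8, the libraries farthest from the median of Hmgcs1, so the relation rests in part on them, and 0.90 with the group means removed. Sqle and Idi1 had r = 0.78 and rho = 0.83 (n = 8, exact permutation p = 0.0246 and 0.0154, adjusted p = 0.259 and 0.152), with r = 0.85 without the 2 libraries farthest from the Sqle median. As said above, differences between single muscles are not resolved for Idi1. Hmgcs1 and Srebf2 had r = 0.73 and rho = 0.81 (n = 8, exact permutation p = 0.0383 and 0.0218, adjusted p = 0.268 and 0.152), with r = 0.94 without the 2 libraries farthest from the Hmgcs1 median. Without Acot2 mKO muscles 7 and 8 (n = 6), the r of these 3 pairs was 0.74, 0.92 and 0.60.

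Fdft1 was in none of the 3 pairs with an unadjusted exact permutation p under 0.05, and neither were Cyp51 and Mvd. The r of Fdft1 with Hmgcs1, Sqle and Cyp51 was -0.27, -0.07 and -0.08, and with Idi1 and Mvd it was 0.17 and 0.38. With Srebf2 it was -0.67 (rho = -0.60; n = 8, exact permutation p = 0.0865 and 0.132, adjusted p = 0.303 and 0.399). The 3 libraries with the highest Fdft1 included Acot2 mKO muscle 6 and Loxp/Loxp muscle 3, the libraries with the least Srebf2, at 445 and 444 normalized reads. The remaining one, Acot2 mKO muscle 7, had Srebf2 at 531, above the mean of 512 over all libraries. The r of Fdft1 with Ctsb, which lies opposite part of it, was 0.28.

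**Figure D3:**
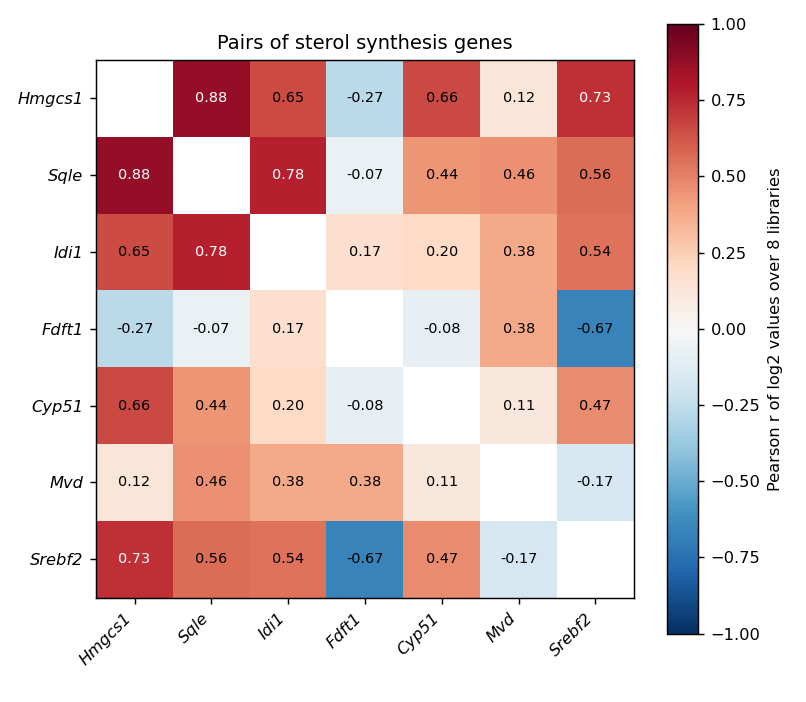
Pearson r of log2 levels over the 8 libraries for each pair of the 7 sterol synthesis genes, on a colour scale from -1 to 1. The warm block of Hmgcs1, Sqle and Idi1 spans 0.65 to 0.88, and the lowest value is that of Fdft1 with Srebf2, at -0.67.

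Promoters were read in the RefSeq promoter table (build GRCm38.p6), which held 5 of the 7 genes: Hmgcs1, Srebf2, Cyp51, Mvd and Idi1. 3 of them are shown from 200 to 51 bases before the RefSeq start, because they hold the letters TCACCNCA, a form of the sterol regulatory element bound by SREBP. Among these 3 genes, r was 0.73 for Hmgcs1 with Srebf2, 0.66 for Hmgcs1 with Cyp51 and 0.47 for Cyp51 with Srebf2. Hmgcs1 with Cyp51 had rho = 0.40, and r = 0.11 without Acot2 mKO muscles 5 and 8. Cyp51 with Srebf2 had rho = 0.29, and r = 0.59 without Acot2 mKO muscle 8 and Loxp/Loxp muscle 4. Within Acot2 mKO muscles the r of these Cyp51 pairs was 0.97 and 0.90, and within Loxp/Loxp muscles it was -0.26 and -0.09. None of the 3 pairs passed the adjusted threshold, and the part of the motif in their co-variation was not tested. Capitals mark TCACCNCA and the NF-Y box CCAAT on either strand (ATTGG is CCAAT on the other strand). The Hmgcs1 stretch is chr13:119690151-119690300 on the plus strand, the Srebf2 stretch chr15:82147069-82147218 on the plus strand and the Cyp51 stretch chr5:4104748-4104897 on the minus strand.
Hmgcs1: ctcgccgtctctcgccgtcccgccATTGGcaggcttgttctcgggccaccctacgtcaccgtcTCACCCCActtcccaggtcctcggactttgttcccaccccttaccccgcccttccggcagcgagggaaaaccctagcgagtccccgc
Srebf2: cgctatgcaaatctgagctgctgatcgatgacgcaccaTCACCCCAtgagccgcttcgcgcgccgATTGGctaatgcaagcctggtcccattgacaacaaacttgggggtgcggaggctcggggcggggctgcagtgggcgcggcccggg
Cyp51: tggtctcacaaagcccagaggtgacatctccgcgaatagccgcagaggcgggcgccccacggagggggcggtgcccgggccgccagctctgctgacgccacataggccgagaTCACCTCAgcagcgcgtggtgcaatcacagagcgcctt

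The TCACCNCA match starts 137 bases before the start in Hmgcs1, 162 before it in Srebf2 and 88 before it in Cyp51. This motif was set after these promoters had been read, and 4.42% of 32851 promoters of the same length held it on either strand. The related CACNCCAC, which overlaps it in Hmgcs1 and was found in no other of the 5, was held by 6.24%. CCAAT and the GC box GGGCGG were found in all 5 promoters, against 37.4% and 35.7% of all promoters, and the E-box CACGTG in none, against 7.15%. Over the 17 genes of the 2 synthesis lists with a promoter in the table, 3 held TCACCNCA, 2 CACNCCAC, 15 CCAAT, 15 GGGCGG and 3 CACGTG (Dhcr7, Hsd17b7 and Sc5d). These are letters in a window of 300 bases, with no binding measured.

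Hmgcs1 and Sqle varied between muscles together with the markers of Schwann cells, which wrap the nerve branches of a muscle, and of their myelin. Of the 15 genes on that list 13 were tested. Mag had 5.71 to 17.9 normalized reads over the 8 libraries, and the myelin regulator Egr2 had 0 in 5 of the 8 libraries and at most 2.28. Their summed level was 2135, 2490, 3671 and 3825 normalized reads in Acot2 mKO muscles 5 to 8, against 2346, 3707, 2549 and 3212 in Loxp/Loxp muscles 1 to 4, so the list differed within each group more than between them (median log2 difference 0.008). Pmp22, a myelin protein that other cells also express, had 721, 773, 1157 and 1312 in Acot2 mKO muscles 5 to 8, against 733, 1186, 776 and 973 in Loxp/Loxp muscles 1 to 4.

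Each of the 7 genes was compared with the mean log2 level of 4 marker lists (adipocyte, Schwann cell and myelin, slow fibre, glycolytic fast fibre), 28 relations in all. Of these, 7 had an unadjusted exact permutation p under 0.05 by Pearson's r, and 2 passed the adjusted threshold, those of Sqle and of Hmgcs1 with the Schwann list. Sqle had r = 0.89 and rho = 0.95 (n = 8, exact permutation p = 0.00255 and 0.00114, adjusted p = 0.0358 and 0.0319). Its r was 0.81 without Acot2 mKO muscles 5 and 8 and 0.90 with the group means removed. Hmgcs1 had r = 0.89 and rho = 0.86 (n = 8, exact permutation p = 0.00238 and 0.0107, adjusted p = 0.0358 and 0.10), with r = 0.78 without the same 2 libraries. Idi1 had r = 0.87 and rho = 0.90 (n = 8, exact permutation p = 0.00598 and 0.00456, adjusted p = 0.0558 and 0.0639). The low read counts of Idi1 limit this relation too. The r of Srebf2 with the list was 0.71 (rho = 0.67; n = 8, exact permutation p = 0.0561 and 0.0831, adjusted p = 0.196 and 0.291), and those of Cyp51, Mvd and Fdft1 were 0.44, 0.12 and -0.08. Acot2 mKO muscles 7 and 8 were high in this list too, and without them (n = 6) the r was 0.87 for Sqle, 0.90 for Hmgcs1 and 0.88 for Idi1. The Schwann list was not alone in this, since Hmgcs1 also had r = 0.87 with the endothelial list, which was looked at after these results were known. With 7 libraries, leaving out any of the 4 Acot2 mKO libraries or Loxp/Loxp muscle 4, neither relation passed the adjusted threshold. It was not passed after quantile normalization either.

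**Figure D4:**
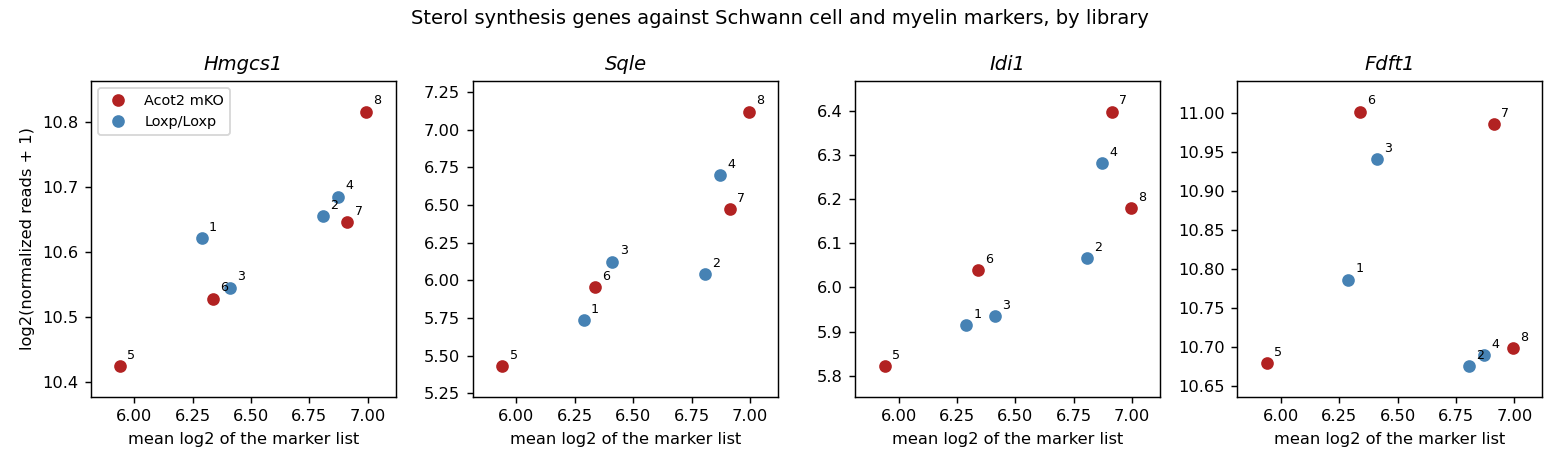
Log2 level of Hmgcs1, Sqle, Idi1 and Fdft1 (vertical axes) against the mean log2 level of 13 Schwann cell and myelin markers (horizontal axes) in each library, with Acot2 mKO and Loxp/Loxp libraries in separate colours and numbered as in the text. Hmgcs1, Sqle and Idi1 lie along a rising band in both groups (r = 0.89, 0.89 and 0.87), and Fdft1 does not (r = -0.08).

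The other 4 relations with an unadjusted exact permutation p under 0.05 involved the adipocyte, slow fibre and glycolytic fast fibre lists, and none passed the adjusted threshold. Loxp/Loxp muscles 2 and 3 stood apart in the first and Acot2 mKO muscles 7 and 8 in the second, so r is also given without them. Sqle had r = 0.82 and rho = 0.79 with the slow fibre list (n = 8, exact permutation p = 0.0129 and 0.0279, adjusted p = 0.0906 and 0.112), and its r was 0.59 without Acot2 mKO muscles 7 and 8. Sqle had r = -0.77 and rho = -0.83 with the glycolytic fast fibre list (n = 8, exact permutation p = 0.0234 and 0.0154, adjusted p = 0.109 and 0.108), and its r was -0.48 without the same 2 libraries. Mvd had r = 0.75 and rho = 0.79 with the slow fibre list (n = 8, exact permutation p = 0.0291 and 0.0279, adjusted p = 0.116 and 0.112), and 0.63 without them. Mvd had r = -0.81 and rho = -0.79 with the adipocyte list (n = 8, exact permutation p = 0.0202 and 0.0279, adjusted p = 0.109 and 0.112), and -0.52 without Loxp/Loxp muscles 2 and 3. The slow fibre list of 11 genes, all tested and none past the threshold, summed to 2550, 3543, 10047 and 22234 normalized reads in Acot2 mKO muscles 5 to 8, against 3057, 2483, 5050 and 4571 in Loxp/Loxp muscles 1 to 4. The library with the highest sum, Acot2 mKO muscle 8, also had the highest Sqle, Hmgcs1, Cyp51, Mvd and Srebf2. The part of slow fibre RNA in these levels was not tested, and neither was the part of nerve RNA.

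Few further genes of the pathway showed the same relation. Outside the 7 genes, Msmo1, a sterol C4-methyl oxidase, had r = 0.72 with the Schwann list. In the other direction Hsd17b7, a 3-ketosterol reductase, had r = -0.65. Of the 20 tested genes of the 2 synthesis lists, 5 had an r above 0.6 and 1 below -0.6, against 5.65% and 5.07% of 13625 tested genes outside the Schwann list. 3 of those 5 were Hmgcs1, Sqle and Idi1. Among the 14 tested genes of these lists outside the 7, 2 had an r above 0.6 and 1 below -0.6 (14.3% and 7.14%). Their median r was 0.09. These correlations over 8 libraries share the same libraries and depths and are given as a description.

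Over all 13631 other tested genes, those most like the mean standardized level of the 6 enzymes were Tnnc1 (r = 0.989 over 8 libraries), Tnni1 (0.966), Tes (0.965), Slc29a1 (0.961), Kcnj8 (0.957), Vtn (0.953), Frem2 (0.944) and Cdk18 (0.942). Tnnc1 encodes the slow and cardiac troponin C and Tnni1 the slow troponin I. Tnnc1 had 3.37, 26.9, 251 and 652 normalized reads in Acot2 mKO muscles 5 to 8, against 20.1, 10.1, 30.6 and 39.0 in Loxp/Loxp muscles 1 to 4. Its 2 highest libraries are those that stood apart in the slow fibre list. In Acot2 mKO muscle 5, Tnnc1 rested on 4 reads and Tnni1 on 0, and Tnni1 rested on 2 reads in Loxp/Loxp muscle 1. The r of both genes therefore depends in part on values near the counting floor. The genes most like Srebf2 were Igfbp7 and Man2b1 (both 0.964), Gjc3 (0.962) and Itga9 (0.948). These 12 genes are the top of that ranking over 8 libraries and are given as a description.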

How the data were processed

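RNA sequencing of white quadriceps from 8 mice (4 Acot2 mKO, 4 Loxp/Loxp) was deposited as 1 table of log2 values. The submitters' processing notes name FastQC, cutadapt, STAR, HTSeq, DESeq2 and the build GRCm38, without roles or versions. RNA was prepared with a Norgen kit and TruSeq Stranded libraries, per the labels. In the deposited table every log2 value was log2(normalized reads + 1), and dividing the normalized reads by 1 factor per library gave whole reads for 100% of the values up to 1000 reads (within 0.1 of a whole number). Group differences were tested with limma 3.58.1 (trend on mean level) in R 4.3.3 on the deposited log2 values, over 13638 genes that reached 10 normalized reads in 4 or more libraries, with Benjamini-Hochberg adjustment and a threshold of 0.05. Single genes and correlations were tested with exact permutation over all relabellings (70) or pairings (40320) in Python 3.11.15 with scipy 1.17.1. The fit was tested on simulated data. The sterol genes, the pathway and marker lists and the alternatives (pseudocount, filters, scaling, library weights, limma-voom on recovered reads, an animal-number block, libraries left out) were chosen with earlier results of these data known. Genes outside the 7 were named by rule: genes of the synthesis and SREBP lists, genes past the threshold, up to 3 genes of other lists with the smallest unadjusted p, the 2 most abundant markers, and the 8 and 4 genes most like the enzymes and Srebf2. Markers and other list genes named beyond the rule (Adipoq, Car3, Mag, Egr2, Ctsb) were chosen after their values were seen. Intervals are 95% intervals from limma, and the limit for a count of 0 (3 reads) covers counting error only. Lengths are exon unions of GENCODE M21. Some genes the rule would name are not reported here, but they are counted in their lists.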

Additional observations from a re-analysis of the deposited data

Results flagged for a closer look

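Among 33 genes of the sterol pathway examined in both groups (66 groups of 4 libraries), 3 had 1 library far from the other 3 of its group by Dixon's ratio (the gap to the nearest library over the whole range, above its 95% critical value), where chance flags about 1 group in 20. Msmo1 had 215 normalized reads in Acot2 mKO muscle 8, against 138 to 142 in the other Acot2 mKO libraries (ratio 0.951). That library also had the highest slow fibre marker sum and the highest Sqle. Insig1 had 1126 normalized reads in Loxp/Loxp muscle 2, against 583 to 639.6 in the other Loxp/Loxp libraries (ratio 0.895). Lbr had 1151 normalized reads in Loxp/Loxp muscle 2, against 1262 to 1274 in the other Loxp/Loxp libraries (ratio 0.898). That library had the highest adiponectin, at 1738 normalized reads. None of the 7 sterol genes had such a library.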

How the results depend on the processing

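The count of sterol genes past the adjusted threshold was 0 under every alternative run, and the count over all tested genes was 2 under each. The filter at a mean of 100 normalized reads removed Idi1, Mvd and Sqle. Mvd stayed positive, between 0.32 (without Loxp/Loxp muscle 2) and 0.63, as did Fdft1, between 0.015 and 0.125. The other 5 estimates, all near 0, changed sign under some settings. With library weights Sqle was -0.091 and Idi1 -0.005, and with limma-voom Srebf2 was 0.015. Without Acot2 mKO muscles 7 and 8, Sqle was -0.457, Idi1 -0.119 and Cyp51 -0.101. Leaving out 1 library at a time gave ranges of -0.094 to 0.037 for Hmgcs1, -0.070 to 0.061 for Srebf2, -0.036 to 0.157 for Idi1, -0.197 to 0.367 for Sqle and -0.017 to 0.155 for Cyp51. The 2 relations with marker lists past the adjusted threshold became 0 after quantile normalization, without Loxp/Loxp muscles 2 and 3 and without Acot2 mKO muscles 7 and 8, and 0 to 2 with 1 library left out. Fewer libraries raise the smallest reachable p. The cause of these losses was not tested, with libraries left out or after quantile normalization. The labels give the groups no shared replicate number. Neighbouring animal numbers, taken as pairs, correlated at -0.083 to 0.188 in their deviations from the group means. With 4 animals a group, these values cannot tell whether the muscles were paired. A fit with these pairs as a block called 0 sterol genes. The median r of the 21 pairs of sterol genes, 0.38, was 0.03 without Acot2 mKO muscles 7 and 8 and 0.25 to 0.46 with 1 library left out. With 4 animals a group, 95% intervals for Sqle span -0.64 to 0.83 on the log2 scale, and Sqle and Idi1 rest on 50 to 195 and 53 to 101 reads a library.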
